A study of Mus musculus with 22 samples.

Results

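The 10 genes described here (Ccdc24, Cpped1, Angptl2, Fam53b, Nmnat1, Atxn1, Loxl4, Slc38a9, Cdk8 and Iqcj) were taken by symbol from 2 tables of splicing deficiency scores of mouse cortex. They were selected on those scores, for large rises in N40K or dTg libraries at 6 months. All 10 were found among the 15705 genes of the 6-month table. Of the 15192 genes of the 12-month table, 8 matched by symbol, and Ccdc24 and Cpped1 were not analysed there. The score (Sd score) is a linear ratio per gene and library, taken here to be higher where more of the signal of a gene is unspliced. The sources used here give neither its formula nor the read depth behind it. No interval that needs the depth is therefore given, and a score is no measure of transcript abundance. Because the 6-month N40K and dTg values chose these genes, the 6-month differences are given as a description, without a test.

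The libraries were poly(A)-selected, stranded and paired-end. The 6-month groups were wild type (WT), N40K, 5xFAD and dTg, with 3 libraries in each, and all were littermates from matings of N40K-Tg +/- with FAD +/- animals. N40K mice express an N-terminal piece of a U1 protein from a transgene. The 5xFAD mice are a transgenic line that forms amyloid plaques, with transgenes driven by the neuronal Thy1 promoter, and dTg mice are positive for N40K-Tg and 5xFAD together. The 12-month groups were WT (4 libraries) and Tau P301S (6 libraries), the latter with mutant human tau, from matings of Tau P301S +/- with WT. The sources used here name no promoter for the N40K and tau transgenes and no sex. They also do not say that each library is a separate animal, so p-values measure only the spread between libraries, which may be technical.

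The U1 particle, made of a small nuclear RNA and its proteins, pairs with the 5′ splice site at the start of an intron and so opens spliceosome assembly. U1 also shields transcripts from premature cleavage and polyadenylation within introns. Aggregates of U1 proteins are known from the brain in Alzheimer disease. The genes described here have no common pathway: they encode secreted proteins (Angptl2, Loxl4), proteins of metabolism, signalling and transport (Nmnat1, Cpped1, Slc38a9), proteins that act in or move into the nucleus (Atxn1, Cdk8, Fam53b), a calmodulin-binding protein (Iqcj) and a coiled-coil protein (Ccdc24).

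The exonic side of a 5′ splice site is the part of the U1 pairing region that a mature transcript keeps. It is shown for each gene because N40K is a piece of a U1 protein. Each line gives the last 20 exon bases, written 5′ to 3′ on the transcript strand, before the longest intron that has at least 20 coding bases directly upstream. The final 3 bases are in capitals, and all come from GENCODE M21 transcripts (GRCm38).
Ccdc24, end of exon 3: atgagagctgatgagccCAG
Cpped1, end of exon 2: cctcgttcatgccatgcCAG
Angptl2, end of exon 2: ttccactgataagccatCAG
Fam53b, end of exon 4: accttgccaagatggcaCAG
Nmnat1, end of exon 3: gagactgtgaaggtgctCAG
Atxn1, end of exon 7: ccctcaccagggtcataCAG
Loxl4, end of exon 14: gttgcacaactgccacaCAG
Slc38a9, end of exon 2: tcagatctgagatctaaAAG
Cdk8, end of exon 1: aaggcgaagaggaaagaTGG
Iqcj, end of exon 3: ttggaatcaaaggtgaaAAT

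Counted over every junction of 1 coding transcript per gene, 47.2% of the 72 exon ends of these 10 genes were CAG or AAG on the transcript strand. The share over 156420 junctions of 13747 genes of the 6-month table was 43.0%. All exon ends of Nmnat1 and Cpped1 were CAG or AAG, against 16.7% of the 12 of Cdk8 and none of the 3 of Iqcj. A score covers a whole gene, so no value below can be tied to any one of these junctions. The genes had a median of 5.5 introns and 68844 intronic bases, against 9 introns and 21840.5 bases over 13780 genes of the table. They did not share a structure: Loxl4, Slc38a9 and Cdk8 had 14, 14 and 12 introns, and intronic bases ran from 2006 in Ccdc24 (chromosome 4) to 404629 in Atxn1 (chromosome 13). Angptl2 lies on chromosome 2, Iqcj on 3, Nmnat1 on 4, Cdk8 on 5, Fam53b on 7, Slc38a9 on 13, Cpped1 on 16 and Loxl4 on 19. Positions are not printed, since the submitters named build mm9 and this annotation is on GRCm38.

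At 6 months 3 patterns were seen among the 10 genes. Scores of Ccdc24, Cpped1, Angptl2, Fam53b, Nmnat1, Atxn1 and Slc38a9 stood higher in both groups with the N40K transgene than in both groups without it. Loxl4 and Cdk8 stood higher with N40K as well, and higher again in dTg than in N40K mice. Iqcj was high in dTg mice but did not follow N40K: it stood as high in 5xFAD mice, and its N40K and WT libraries overlapped. In 8 of the 10 genes, all but Loxl4 and Iqcj, the lowest of the 6 carrier libraries (N40K and dTg) lay above the highest of the 6 others. Over all genes of the table this held for 5.11%, and nothing is read from the count because these libraries chose the genes.

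**Figure D1:**
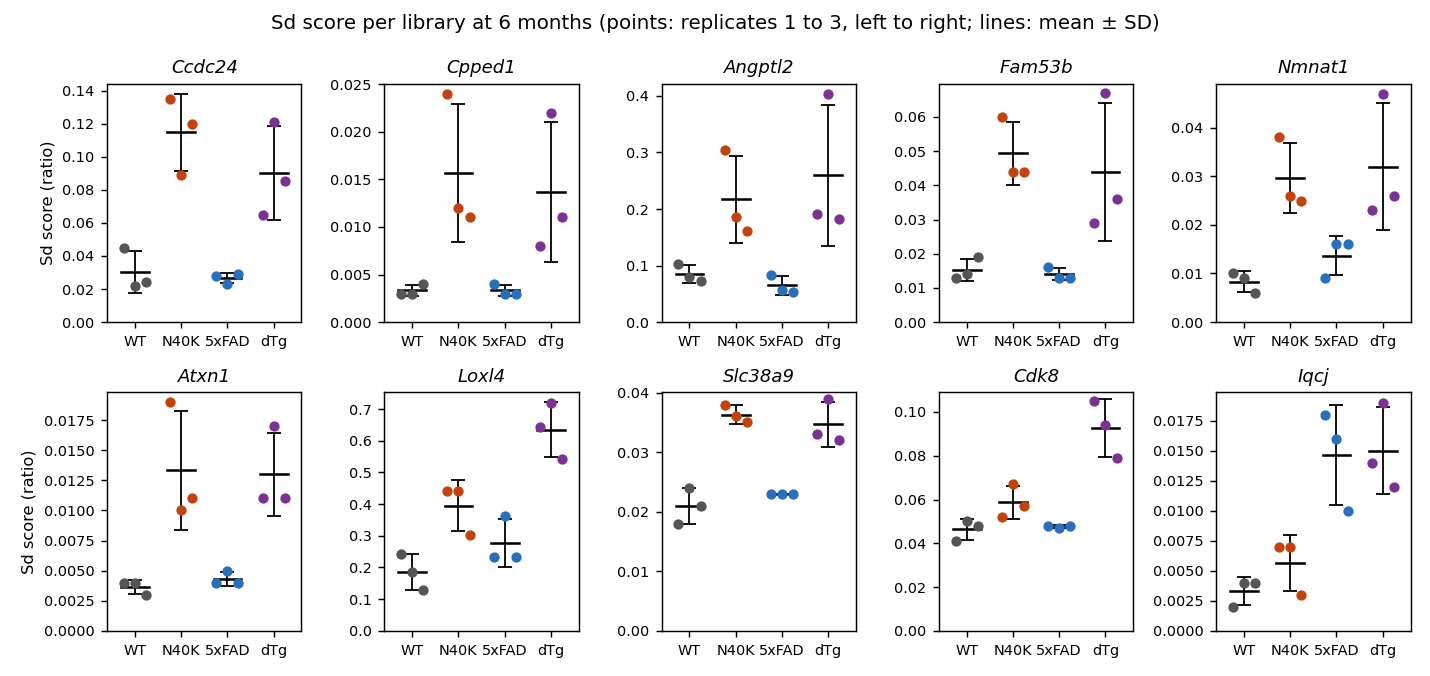
Sd score (linear ratio, each panel on its own scale from 0) of each of the 10 genes in the 12 libraries of 6 months, with points for replicates 1 to 3 and black lines for the mean ± SD (n = 3). In 8 panels all N40K and dTg points lie above all WT and 5xFAD points, while in Iqcj the 5xFAD and dTg points lie high.

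The genes for secreted proteins had the highest scores of the set. Angptl2 (ENSMUSG00000004105), an angiopoietin-like protein linked to inflammation, had 0.103, 0.080 and 0.072 in the WT libraries (replicates 1 to 3 here and below) and 0.084, 0.057 and 0.054 in 5xFAD mice. In N40K mice it had 0.304, 0.186 and 0.161, and in dTg mice 0.191, 0.404 and 0.183. All 6 carrier libraries lay above all others, and the highest were N40K replicate 1 and dTg replicate 2. On the scale of log2(score + 0.002), from which all folds here are taken and which draws those of low scores towards 1, the carriers stood 3.01-fold above the other mice. The fold was larger in mice with amyloid transgenes (3.71 for dTg against 5xFAD) than in those without (2.45 for N40K against WT), and that difference was not tested.

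Loxl4 (ENSMUSG00000025185) is a lysyl oxidase, an enzyme that cross-links collagen and elastin. Its scores were 0.242, 0.185 and 0.130 in WT, 0.234, 0.364 and 0.232 in 5xFAD, 0.442, 0.441 and 0.303 in N40K and 0.643, 0.719 and 0.544 in dTg libraries. The dTg libraries lay above all 9 others. N40K replicate 3 lay below 5xFAD replicate 2, so carriers and non-carriers overlapped. Loxl4 stood 2.15-fold higher in N40K than in WT mice, 1.5-fold in 5xFAD and 3.48-fold in dTg mice, where only 3 of all 15705 genes had a larger fold against WT.

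Among the genes of metabolism and transport, Nmnat1 (ENSMUSG00000028992), which makes NAD in the nucleus, had 0.010, 0.009 and 0.006 in WT and 0.009, 0.016 and 0.016 in 5xFAD libraries. It had 0.038, 0.026 and 0.025 in N40K and 0.023, 0.047 and 0.026 in dTg libraries. Carriers did not overlap the others (2.55-fold), while 5xFAD mice, at 1.5-fold above WT, overlapped WT. Cpped1 (ENSMUSG00000065979), a phosphatase that acts on the kinase AKT, had 0.003 or 0.004 in all 6 non-carriers, against 0.024, 0.012 and 0.011 in N40K and 0.008, 0.022 and 0.011 in dTg libraries. The carriers stood 2.95-fold higher, and in the non-carriers 1 step of the last deposited decimal is a large part of the value.

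Slc38a9, listed without an Ensembl identifier, is an amino acid transporter of the lysosome that reports arginine to mTORC1. It had 0.018, 0.024 and 0.021 in WT and 0.023 in all 5xFAD libraries, against 0.038, 0.036 and 0.035 in N40K and 0.033, 0.039 and 0.032 in dTg libraries. The rise was smaller than in the genes above (1.56-fold over all carriers) and also tighter: the 6 carriers spanned 0.032 to 0.039.

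Of the genes with nuclear roles, Atxn1 (ENSMUSG00000046876), the polyglutamine protein of spinocerebellar ataxia type 1 and a partner of the repressor Capicua, had 0.003 to 0.005 in the 6 non-carriers. N40K libraries had 0.019, 0.010 and 0.011 and dTg libraries 0.011, 0.017 and 0.011, so the groups with and without N40K did not overlap (2.48-fold). Fam53b (ENSMUSG00000030956), known for its part in the nuclear entry of β-catenin, had 0.013, 0.014 and 0.019 in WT and 0.016, 0.013 and 0.013 in 5xFAD libraries. It had 0.060, 0.044 and 0.044 in N40K and 0.029, 0.067 and 0.036 in dTg libraries, again without overlap (2.84-fold).

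Cdk8 (ENSMUSG00000029635), the kinase of the Mediator complex, had 0.041, 0.050 and 0.048 in WT and 0.048, 0.047 and 0.048 in 5xFAD libraries. N40K libraries had 0.052, 0.067 and 0.057, just above both, and dTg libraries 0.105, 0.094 and 0.079. The order WT, 5xFAD, N40K, dTg had overlapping neighbours only in WT and 5xFAD. The fold was 1.25 for N40K against WT and 1.89 for dTg against 5xFAD, and the difference between these was not tested. With library medians set equal, the N40K minus WT difference of Cdk8 fell from 0.33 to 0.17 on the log2 scale. Unlike in most of the genes, neither N40K replicate 1 nor dTg replicate 2 was the highest library of its group.

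Ccdc24 (ENSMUSG00000078588), a coiled-coil protein, had 0.045, 0.022 and 0.024 in WT and 0.028, 0.023 and 0.029 in 5xFAD libraries, against 0.135, 0.089 and 0.120 in N40K and 0.065, 0.121 and 0.085 in dTg libraries. Its fold over all carriers, 3.42, was the second largest of all 15705 genes. By the same fold Slc38a9, Cdk8 and Iqcj ranked far lower, at 358, 399 and 3073.

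Iqcj (ENSMUSG00000051777) encodes a calmodulin-binding IQ-motif protein, and a joint transcript with its neighbour Schip1 makes a protein of axon initial segments and nodes of Ranvier. It had 0.002, 0.004 and 0.004 in WT and 0.007, 0.007 and 0.003 in N40K libraries, which overlapped. In 5xFAD libraries it had 0.018, 0.016 and 0.010, and in dTg libraries 0.014, 0.019 and 0.012. All 6 libraries with amyloid transgenes lay above all 6 without, the nearest at 0.010 and 0.007. The share of all genes with that split is not given here, and the dTg scores had helped to choose the gene. The fold was 3.2 for dTg against WT, 3.11 for 5xFAD against WT and 2.26 for dTg against N40K, but 1.03 for dTg against 5xFAD. Iqcj alone of the 10 was without overlap between 5xFAD and WT mice, a separation upwards that 3.23% of all genes showed. Schip1 had 0.002 or 0.003 in every 6-month library.

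**Figure D2:**
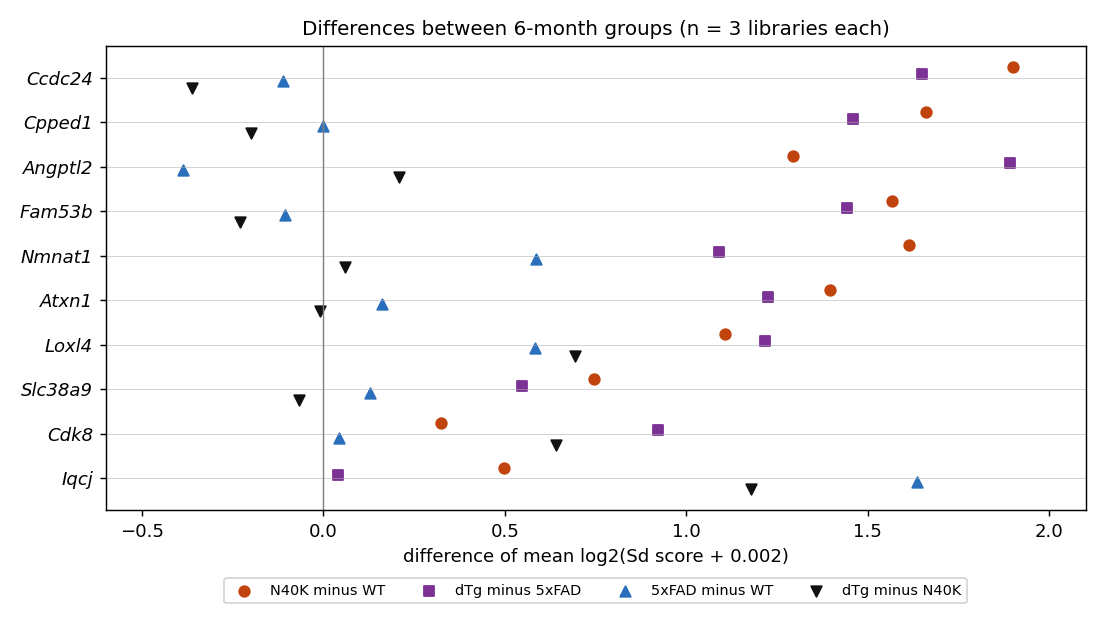
Differences between group means of log2(Sd score + 0.002) for the 10 genes at 6 months (n = 3 libraries a group), by comparison. For 9 genes the N40K effects (circles without and squares with amyloid transgenes) lie at 0.33 or more; for Iqcj the largest of the 4 differences drawn is 1.64, for 5xFAD minus WT.

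The comparisons share libraries, so they are not independent. Side by side, 9 of the 10 genes lay without overlap above WT in N40K mice (16.8% of all genes did), 10 in dTg mice against WT (18.4%) and 9 in dTg against 5xFAD mice (14.4%). Loxl4, Cdk8 and Iqcj lay without overlap higher in dTg than in N40K mice (2.92% of all genes). The median difference over the 10 genes was 1.33 on the log2 scale for carriers against non-carriers, against 0.09 over all genes, and 0.09 for 5xFAD minus WT, against 0 over all genes. Values next to those of the 10 genes belonged to Lrrc8c (3.04-fold), Kcnk3 (2.77-fold), Entpd6 (2.74-fold), Zfp114 (2.42-fold) and BC006965 (2.41-fold). These are the largest other rises among genes whose carriers and non-carriers did not overlap, leaving out 6 predicted genes (Gm or Rik names) that rose as much or more, by up to 6.23-fold. For dTg against WT they were Slco1a5 (3.66-fold), Svopl (3.45-fold), Calml4 (3.31-fold), Rrh (3.17-fold) and Lrrc8c (3.01-fold), leaving out 3 such predicted genes.

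The 10 genes rose unevenly over the carrier libraries. N40K replicate 1 was alone the highest of its group in 8 genes and dTg replicate 2 in 9. These libraries also had the highest median score over all genes (0.036 and 0.035, against 0.029 to 0.033 in the other 10), and the part of this in the rises was not tested. Measured against the WT mean, the median of the 10 genes was 3.59-fold in N40K replicate 1 and 4-fold in dTg replicate 2. It was 2.31- and 2.09-fold in the other N40K libraries, 2.23- and 2.37-fold in the other dTg libraries and 1.05- to 1.07-fold in the 5xFAD libraries. Without both libraries, carriers and non-carriers still differed by a median of 1.10 on the log2 scale, with Ccdc24 at 1.60 and Slc38a9 at 0.59. With library medians set equal, each of the 6 carrier libraries kept a median of at least 0.94 on the log2 scale above WT.

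**Figure D3:**
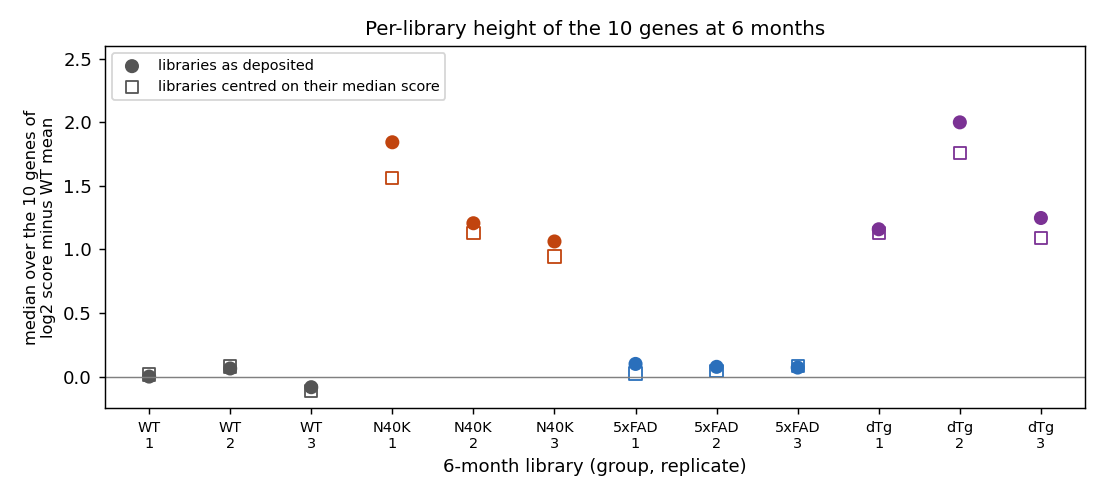
Median over the 10 genes of log2(Sd score + 0.002) minus the WT mean of each gene, for each 6-month library, before (filled circles) and after (open squares) centring on the median score of the library. N40K replicate 1 and dTg replicate 2 stand highest at 1.84 and 2.00 before centring, and the other carriers lie between 1.06 and 1.25.

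Across the 12 libraries of 6 months, the 9 genes other than Iqcj varied together, with Pearson's r from 0.573 to 0.987 over 36 pairs (median 0.871). Cpped1 and Fam53b were the closest pair. The 9 pairs with Iqcj had r from 0.024 to 0.565. These values are a description: the points share libraries and groups, and the genes were chosen for their height in these groups. Among genes with a mean score of at least 0.02, those most like the mean of the 10 included Atg4c (r = 0.98, 12 libraries), Ndst3 (0.979), Hrasls (0.978) and Ica1 (0.974). By single gene, Entpd6 was closest to Cpped1 (0.994), Usp11 to Fam53b (0.993), Faah to Atxn1 (0.979), Ehhadh to Loxl4 (0.975), Adamts17 to Angptl2 (0.968) and Sspn to Cdk8 (0.968). Hnrnpu was closest to Slc38a9 (0.964), Ptpn1 to Ccdc24 (0.961), Ddn to Nmnat1 (0.948) and Med23 to Iqcj (0.908).

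Genes that overlap or adjoin the 10 in the annotation had smaller folds than 9 of the 10. The 10 were selected for large rises in these libraries and their neighbours were not, so nothing is read from that difference. Ccdc24 overlaps Slc6a9 on the other strand and B4galt2 on its own, Angptl2 lies opposite Ralgps1, Atxn1 overlaps Gmpr on the other strand, and Fam53b overlaps Fgfr2 on the same strand in this annotation. The sources used here give no strand setting of the counting, so reads of overlapping genes cannot be told apart. Slc6a9, a glycine transporter gene, had 0.0267 ± 0.000577 in WT and 0.0307 ± 0.00252 in N40K libraries (SD, n = 3 each). Ralgps1 had 0.0177 ± 0.000577 and 0.0197 ± 0.000577, and Gmpr 0.00667 ± 0.000577 and 0.00767 ± 0.000577 (SD, n = 3 each). Over the 26 overlapping or nearest genes with a score, the fold for carriers against non-carriers ran from 0.808 (Pyroxd2, beside Loxl4) to 1.37 (Shisa9, beside Cpped1), with a median of 1.12 (0.17 on the log2 scale, against 0.09 over all genes). All 6 carriers lay above all others in 3 of the 26 (11.5%, against 5.11% of all genes): Dmap1, Garnl3 and Wasf3.

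Partners in the families and complexes of the 10 genes were read from lists that do not hold the genes themselves. For carriers against non-carriers, limma (adjusted p under 0.05, which 11.7% of the table passed and 10.8% as higher) gave 1 of 3 lysyl oxidases, 1 of 12 SLC38 transporters and lysosomal amino acid sensors, 1 of 11 Mediator genes and 2 of 10 ataxin genes and partners as higher. None of the 5 measured angiopoietin and angiopoietin-like genes, 6 NAD genes or 2 FAM53 genes was called, nor was Schip1 (at an unadjusted p under 0.05, 1, 1, 0 and 0). The share of all genes at that unadjusted level is not given here, so nothing is read from the unadjusted counts. No partner was called lower. The list medians were 0.56 for lysyl oxidases, 0.10 for angiopoietins, 0.13 for NAD genes, 0.09 for SLC38 and sensors, 0.08 for Mediator, 0.01 for ataxins and 0.16 for FAM53, against 0.09 over all genes.

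The called partners were named after their values were seen. Atxn3, the polyglutamine protein of Machado-Joseph disease, had 0.03 ± 0.001 in WT, 0.032 ± 0.001 in 5xFAD, 0.0417 ± 0.00321 in N40K and 0.0443 ± 0.00513 in dTg libraries (SD, n = 3 each; limma adjusted p = 0.00659). Rragb, a GTPase through which lysosomal amino acids reach mTORC1, had 0.018 ± 0.00173, 0.0173 ± 0.000577, 0.024 ± 0.001 and 0.0253 ± 0.00416 in the same order (limma adjusted p = 0.0118). Both passed without each single library, and without N40K replicate 1 and dTg replicate 2 together (limma adjusted p = 0.00757 and 0.0143). Loxl2 (1.48-fold, limma adjusted p = 0.0304), Atxn7l1 (1.29-fold, 0.0183) and Ccnc, the cyclin of Cdk8 (1.19-fold, 0.0264), missed the threshold without those libraries (0.135, 0.0665 and 0.116). Ccnc also missed it after centring (0.233), as did Loxl2 (0.0509). With 1 library left out, the limma adjusted p of Atxn7l1 ran from 0.0136 to 0.0438. That of Loxl2 ran from 0.0182 to 0.0739 and missed the threshold without WT replicate 1 or 2, N40K replicate 1 or 3, 5xFAD replicate 1 or 3, or dTg replicate 2 or 3. That of Ccnc ran from 0.0267 to 0.0659 and missed it without WT replicate 1 or 2, N40K replicate 1, 5xFAD replicate 2 or 3, or dTg replicate 2.

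The 12-month libraries were not used to pick the genes, so here the comparison of Tau P301S with WT mice was tested. None of the 8 genes passed (limma, adjusted p under 0.05; 0.00658% of all 15192 genes did, that is 1 gene), and no gene of the 8 was without overlap between the groups (0.29% of all genes lay higher and 0.994% lower without overlap). At an unadjusted p under 0.05, Atxn1 alone of the 8 passed, against 8.28% of all genes. The median difference over the 8 genes was 0.25 on the log2 scale, against −0.02 over all genes.

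Atxn1 had 0.001, 0.001, 0.002 and 0.002 in the WT libraries and 0.002 in 5 of the 6 Tau P301S libraries, with 0.003 in the other. It stood 1.2-fold higher (95% interval 1.01 to 1.43, limma adjusted p = 0.595), a difference of at most 2 steps of the last decimal between any libraries. Slc38a9 had 0.017, 0.020, 0.023 and 0.024 in WT and 0.020, 0.0255 and 0.032 as lowest, median and highest in Tau P301S libraries (1.2-fold, interval 0.955 to 1.5, limma adjusted p = 0.674). Nmnat1 had 0.008, 0.009, 0.004 and 0.003 in WT and 0.004, 0.008 and 0.017 (lowest, median, highest) with Tau P301S (1.38-fold, interval 0.812 to 2.35, limma adjusted p = 0.79). In Slc38a9 4 Tau P301S libraries and in Nmnat1 2 lay above the WT range, and the others lay within it.

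Fam53b had 0.003 to 0.005 in WT and 0.002 to 0.008 with Tau P301S (1.18-fold, interval 0.793 to 1.74, limma adjusted p = 0.858). Iqcj had 0.001 in 3 WT libraries and 0.004 in the other, and 0.002 in 5 Tau P301S libraries and 0.004 in the other (1.2-fold, interval 0.851 to 1.69, limma adjusted p = 0.8). No 12-month library came near the 0.010 to 0.019 of the 6-month 5xFAD and dTg libraries, a comparison across tables that may have been scaled separately.

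Loxl4 had the widest interval at 12 months, and both genes for secreted proteins split the Tau P301S libraries the same way. Angptl2 had 0.053, 0.027, 0.025 and 0.027 in WT libraries, 0.016, 0.014 and 0.019 in Tau P301S replicates 1 to 3 and 0.031, 0.039 and 0.025 in replicates 4 to 6. Loxl4 had 0.271, 0.382, 0.117 and 0.050 in WT libraries, 0.078, 0.033 and 0.029 in Tau P301S replicates 1 to 3 and 0.176, 0.291 and 0.219 in replicates 4 to 6. In both genes the first 3 Tau P301S libraries were the lowest of their group and the WT range covered part of it. Angptl2 stood at 0.735-fold (interval 0.453 to 1.19, limma adjusted p = 0.785) and Loxl4 at 0.627-fold (interval 0.174 to 2.26, limma adjusted p = 0.879). The Loxl4 difference of −0.67 on the log2 scale became −0.25 without WT replicate 2 and −1.21 without WT replicate 4. Angptl2 and Loxl4 were also the pair of highest r among the 8 genes over the 10 libraries (0.726), where the 28 pairs ran from −0.681 with a median of −0.02.

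Cdk8 had 0.260, 0.240, 0.302 and 0.269 in WT and 0.355, 0.246, 0.353, 0.221, 0.238 and 0.211 in Tau P301S libraries. Tau P301S replicates 1 and 3 lay above all WT libraries and replicates 4, 5 and 6 below all of them, and the group means did not differ beyond that spread (0.991-fold, interval 0.76 to 1.29, limma adjusted p = 1). The level itself was far from that at 6 months: the WT mean of Cdk8 exceeded that of 94.9% of genes at 12 months, against 60.8% at 6 months. The other 7 genes kept a rank nearer to their own, such as Loxl4 (93.1% and 86.2%) and Atxn1 (5.25% and 9.04%). Among them Fam53b (16.7% and 33.9%) and Slc38a9 (57.6% and 41.2%) moved more than these. The 2 tables may have been scaled separately, and age and table cannot be told apart.

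**Figure D4:**
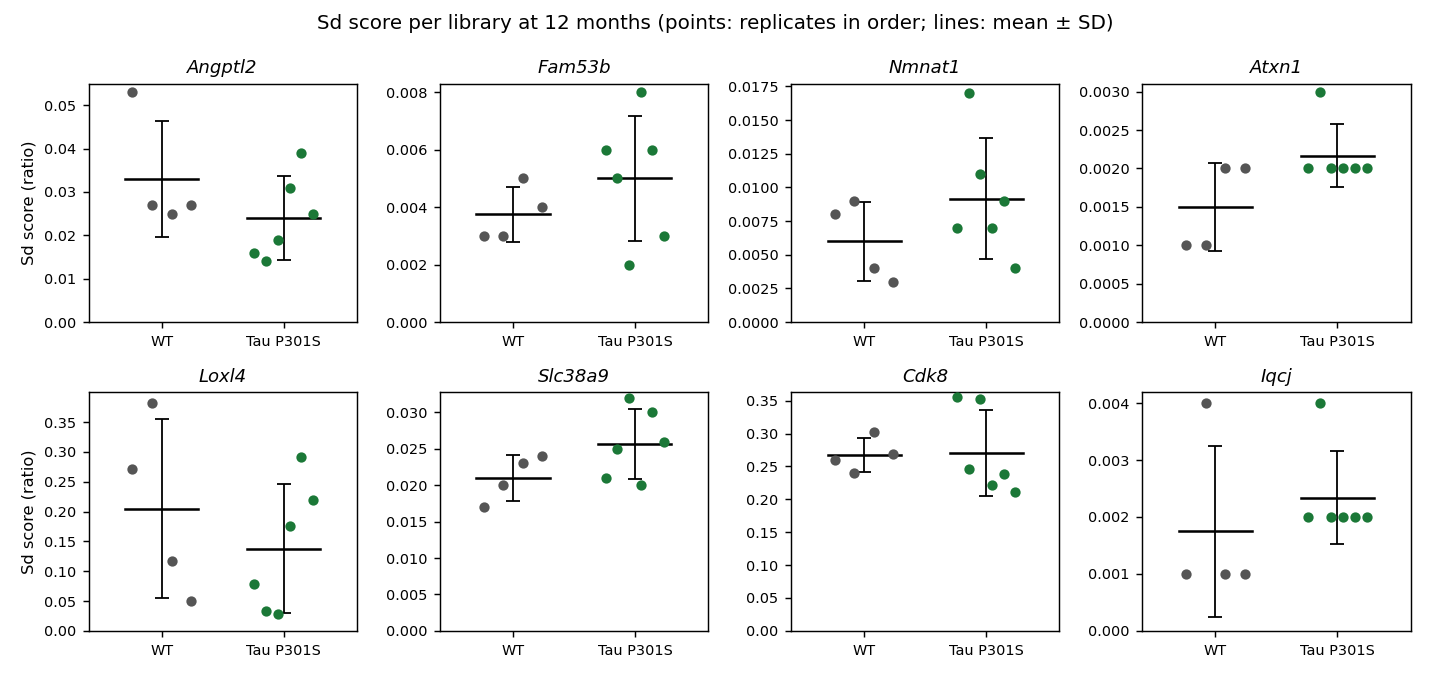
Sd score (linear ratio, each panel on its own scale from 0) of the 8 genes with a 12-month score in 4 WT and 6 Tau P301S libraries, with black lines for the mean ± SD. The groups overlap in all 8 panels, and Loxl4 spans 0.050 to 0.382 among WT libraries alone.

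For 6 of the 8 genes the upper bound of the 95% interval for Tau P301S lay below the fold of N40K carriers at 6 months, as in Angptl2 (1.19 beside 3.01), Fam53b (1.74 beside 2.84) and Atxn1 (1.43 beside 2.48). The bound lay closer in Nmnat1 (2.35 beside 2.55) and Slc38a9 (1.5 beside 1.56). It was not below the 6-month fold for Loxl4 (2.26 beside 2.24) and Iqcj (1.69 beside 1.21). The genes were selected for large 6-month folds, which have no interval here, so the selection favours this count and nothing is read from it. Lower scores at 12 months are also drawn closer to 1 by the added 0.002, so the values stand side by side with no test.

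**Figure D5:**
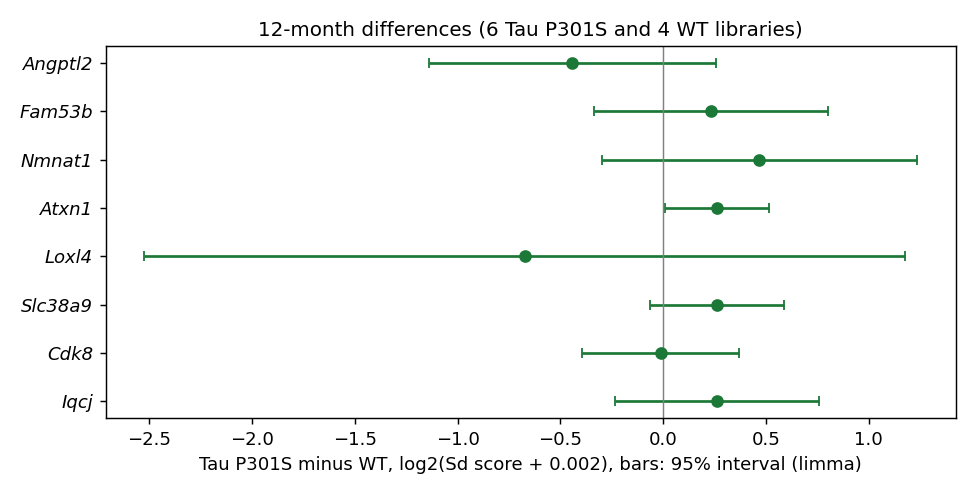
Tau P301S minus WT difference in log2(Sd score + 0.002) at 12 months for the 8 genes, with 95% intervals from limma (6 and 4 libraries). The intervals of 7 genes include 0, that of Atxn1 starts at 0.01, and Loxl4 has the widest, from −2.52 to 1.18.

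The partner lists gave no call at 12 months either: none of 3 lysyl oxidases, 6 angiopoietins, 6 NAD genes, 11 SLC38 transporters and sensors, 11 Mediator genes, 10 ataxins, 2 FAM53 genes or Schip1 passed (limma; 0, 2, 0, 0, 1, 1, 0 and 0 at an unadjusted p under 0.05). Markers of other cell types were counted beside them, although a splicing score does not measure how much RNA a cell type gives. None of 13 microglial, 7 astrocyte, 7 oligodendrocyte, 7 endothelial and pericyte or 7 neuronal genes passed (limma; 4, 0, 0, 1 and 0 at an unadjusted p under 0.05). Over all genes 8.28% had an unadjusted p under 0.05, a share that 4 of 13 microglial genes and 2 of 6 angiopoietins exceed. No set test was run. The median differences of the marker lists were −0.15, −0.07, −0.06, −0.08 and −0.08, against −0.02 over all genes. For carriers against non-carriers at 6 months, limma called 0 of 7 microglial and 3 of 8 astrocyte markers (2 higher, 1 lower). It called 1 of 5 oligodendrocyte (lower), 1 of 6 endothelial and pericyte (lower) and 1 of 7 neuronal markers (higher). Over all genes 11.7% were called, and 10.8% as higher. Sox9 and Olig2 stood highest in 5xFAD libraries, with means of 0.0467 and 0.175. Their means were 0.0247 and 0.131 in WT, 0.024 and 0.122 in N40K and 0.022 and 0.124 in dTg libraries. The astrocyte markers S100b and Slc1a2 stood higher in carriers, by 1 step of the last decimal or less. Their means were 0.002 and 0.003 in WT and in 5xFAD, 0.003 and 0.004 in N40K and 0.00267 and 0.00333 in dTg libraries. The neuronal Snap25 had 0.003 in all 6 non-carriers and 0.004 to 0.006 in carriers, a few steps of the last decimal. The endothelial Tek had 0.012 to 0.015 in non-carriers and 0.009 to 0.011 in carriers. The other measured markers of the neuronal and endothelial lists did not separate carriers from non-carriers. Slc17a7 had means of 0.0287 in WT and 0.0293 in N40K libraries, and Pdgfrb 0.0163 in both. Camk2a had means of 0.00767 in WT and in 5xFAD, 0.00967 in N40K and 0.01 in dTg libraries. For carriers against non-carriers the list median was 0.17 for neuronal and −0.06 for endothelial and pericyte markers, against 0.09 over all genes. The markers named here were singled out after their values were seen. The part of these in the rises of the 10 genes was not tested. The tissue label was not checked against expression, which is not analysed here, and in bulk cortex fewer cells of a type and less RNA per cell cannot be told apart.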

How the data were processed

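Poly(A) RNA of mouse cortex was sequenced in 22 libraries. The values analysed, Sd scores as deposited by the authors, are linear ratios with 3 decimals. The submitters' processing notes name CASAVA, STAR, BWA, bedtools 2.16.1 and build mm9; formula, counter and annotation are not given in the sources used here. The members and lists were chosen with earlier results of these data known.

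Scores were put on the scale log2(score + 0.002), the pseudocount being the 5th percentile of the values above 0 of each table. Libraries were not recentred. Groups were fitted over all genes of a table with limma 3.58.1 in R 4.3.3 (default eBayes, 1 term per group, 8 residual and 1.11 prior degrees of freedom at 12 months), with two-sided p-values adjusted by Benjamini-Hochberg over the table. The script was tested on simulated data. Between libraries at most 24.7% of genes had identical scores, so none looked like a copy. Named genes were the 10 members, genes overlapping or next to them, the genes most like them by Pearson's r, the 5 largest other rises without overlap in 2 comparisons (predicted genes left out here too, which the rule set only for like genes), and list members called at 12 months (there were none); partners called at 6 months were added after their values were seen. Of the genes most like the members, 1 is not reported here. Gene structure and exon ends came from GENCODE M21, 1 coding transcript per gene. Alternatives were other pseudocounts (0.001 and 0.01), centring, a minimum mean score of 0.02, each library left out, both libraries of highest median left out, a replicate block, a trend and array weights.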

Additional observations from a re-analysis of the deposited data

Results flagged for a closer look

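Single libraries stood apart from the rest of their group in 4 of the 16 groups of 4 or 6 libraries checked at 12 months (chance marks about 1 in 20). That rate does not hold for the groups of Atxn1 and Iqcj. The other libraries there had identical scores, so any step of the last decimal stands apart, and no excess is read from the count. Angptl2 was at 0.053 in WT replicate 1, against 0.025 to 0.027 in the other WT libraries. Atxn1 was at 0.003 in Tau P301S replicate 2 and 0.002 in the other 5, which is 1 step of the last decimal. Iqcj was at 0.004 in WT replicate 2 and at 0.004 in Tau P301S replicate 2, against 0.001 and 0.002 in the others of each group. Without WT replicate 1 the Angptl2 difference between Tau P301S and WT was −0.20 on the log2 scale, against −0.44 with it. Without WT replicate 2 the Iqcj difference was 0.51, against 0.26 with it, and neither gene passed the limma threshold under any library left out.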

How the results depend on the processing

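At 12 months none of the 8 genes passed under any alternative run. The number of all genes that passed was 1, and it became 0 with a pseudocount of 0.01, 0 after centring, 3 with a mean score of at least 0.02, 3 with array weights and 1 to 5 with 1 library left out (5 without WT replicate 4, 4, 3 and 2 without Tau P301S replicates 3, 2 and 1, and 2 without WT replicate 3). The replicate numbers did not pair the libraries (r of same-numbered deviations from −0.2 to 0.071 at 6 months and −0.265 to 0.191 at 12 months; 0 of 12 and 1 of 8 libraries were most like one of their own number), and with a replicate block on replicates 1 to 4, 0 genes passed. With a mean score of at least 0.02, which left 4 of the 8 genes, the median difference turned to −0.23. Cdk8, near 0, turned to 0.0074 after centring, 0.11 with the replicate block and ran from −0.0969 to 0.0521 with 1 library left out, and Loxl4 turned to 0.25 with array weights. At 6 months the differences of single genes that changed sign lay in 5xFAD minus WT, dTg minus N40K and (Iqcj) dTg minus 5xFAD. A pseudocount of 0.01 lowered the median over the 10 genes to 0.90 for carriers against non-carriers, 0.99 for N40K minus WT, 0.97 for dTg minus WT and 0.81 for dTg minus 5xFAD. Leaving out both libraries of highest median gave 1.09 for N40K minus WT (1.34 with all) and 1.17 for dTg minus WT (1.48). With 1 library left out these ran from 1.09 (without N40K replicate 1) to 1.49 and from 1.17 (without dTg replicate 2) to 1.69. Read depth per score is unknown, and scores near 0.002 are limited by the 3 deposited decimals.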
